A study of Rattus norvegicus with 22 samples.

Results

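The genes described here are 10 genes of the T cell receptor complex and its first signalling steps, Cd3d, Cd3e, Cd3g, Cd247, Cd4, Cd8a, Cd8b, Cd2, Lck and Zap70, out of 19167 gene symbols on the array. They were chosen by name, each is measured by 1 probe, and none had a missing value. OSCC of the tongue was compared with phenotypically normal tongue taken beside it, with 1 piece of each from 11 male F344 rats, 22 arrays in all. All rats had drunk water with the carcinogen 4-NQO (20 ppm) over 10 weeks, and the pieces were taken 23 to 26 weeks after the first exposure, at an age of 33 weeks per the labels. Both tissues therefore share the carcinogen, although the labels give no treatment for the normal pieces and carry the word untreated in the titles of both tissues. Each piece is bulk tissue from the side of the tongue kept for molecular work, the other side being read by histology. A higher signal from more T cells and a higher signal from more RNA per T cell cannot be told apart in such tissue.

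The T cell receptor has no signalling domain of its own. Its antigen-binding chains are held in the membrane by the CD3 delta, epsilon and gamma chains and by the zeta chain, which Cd247 encodes, and these chains carry the tyrosine motifs that pass the signal inward. The co-receptors CD4 and CD8 bind MHC class II and class I, respectively, and bring the kinase LCK to the receptor. LCK then phosphorylates the motifs, and ZAP70 docks on them and phosphorylates the adaptors downstream. CD4 and the alpha chain of CD8 are not confined to T cells in the rat, since macrophages and monocytes are known to carry CD4 and NK cells are known to carry CD8 alpha.

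Expression is given as the log2 signal of a probe relative to the 75th percentile of its array, so 0 is that percentile and each unit is a doubling. Levels of different probes are not compared. Change is the log2 expression of the OSCC piece minus that of the normal piece of the same rat. A gene was called up-regulated or down-regulated when limma's p, adjusted over all 30367 probes, was below 0.05 and the mean change was at least 2-fold.

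Sequences are shown for the genes on which the comparison of CD8 with CD4 rests, or that lie side by side. Start-site windows of 300 bases come from RefSeq (assembly GRCr8), which held 8 of the 10 genes, with 2 start sites for Lck. The window of Cd8a (chr4:104923866-104924165, plus strand) is shown because Cd8a had the largest mean change of the 10 genes, and those of Cd3g (chr8:54183869-54184168, minus strand) and Cd3d (chr8:54185269-54185568, plus strand) because these genes start 1601 bases apart on opposite strands. The upstream Lck window (chr5:147201218-147201517, minus strand) is shown because it holds 3 of the matches searched for. The other windows, not printed, are those of Cd3e (chr8:54211721-54212020), Cd247 (chr13:80576019-80576318), Cd2 (chr2:191412610-191412909), Zap70 (chr9:46485355-46485654) and the downstream start of Lck (chr5:147183601-147183900), and the Cd4 probe lies at chr4:160988512-160988571 on rn4. Capitals mark AGGAAG (an ETS-type motif), TGTGGT (RUNX) and CTTTGA (TCF/LEF) on either strand, and no match overlaps another.
Cd8a: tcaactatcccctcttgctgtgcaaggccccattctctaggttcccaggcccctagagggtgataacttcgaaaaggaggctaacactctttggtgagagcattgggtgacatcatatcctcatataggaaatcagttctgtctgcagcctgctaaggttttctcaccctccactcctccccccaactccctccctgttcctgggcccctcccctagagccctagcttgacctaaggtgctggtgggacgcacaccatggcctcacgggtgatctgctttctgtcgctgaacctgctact
Cd3g: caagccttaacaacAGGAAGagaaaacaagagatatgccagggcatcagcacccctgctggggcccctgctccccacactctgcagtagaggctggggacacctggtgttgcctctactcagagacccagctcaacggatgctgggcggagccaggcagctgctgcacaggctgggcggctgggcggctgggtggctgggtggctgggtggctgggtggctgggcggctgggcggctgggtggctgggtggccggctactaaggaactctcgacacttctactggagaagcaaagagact
Cd3d: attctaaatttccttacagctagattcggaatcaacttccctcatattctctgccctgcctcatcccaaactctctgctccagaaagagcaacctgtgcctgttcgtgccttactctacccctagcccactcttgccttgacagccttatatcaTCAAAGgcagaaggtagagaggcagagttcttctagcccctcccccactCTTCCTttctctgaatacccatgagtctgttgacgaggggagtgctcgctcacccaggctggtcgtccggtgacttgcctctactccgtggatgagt
Lck: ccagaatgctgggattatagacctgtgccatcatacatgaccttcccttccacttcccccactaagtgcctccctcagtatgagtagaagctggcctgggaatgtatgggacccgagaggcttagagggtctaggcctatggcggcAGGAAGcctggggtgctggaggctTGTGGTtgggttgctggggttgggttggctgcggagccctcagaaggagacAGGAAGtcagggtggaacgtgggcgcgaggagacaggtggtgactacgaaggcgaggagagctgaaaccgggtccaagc
The probes of Lck and Cd8b are shown as examples of genes near background on some or all normal arrays. Lck exceeded background on 6 of the 11 normal arrays and Cd8b on 0, so that their values rest on how well these 60 bases hybridized. Cd8a and Cd3e, above background on 3 and 5 normal arrays, have the same limit, and their probes are not printed. On assembly rn4 the Lck probe lies at chr5:148713169-148715276 on the minus strand, its 60 bases spread over 2108 genomic bases, and the Cd8b probe lies at chr4:104542505-104542564 on the plus strand.
Lck probe: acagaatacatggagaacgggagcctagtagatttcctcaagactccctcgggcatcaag
Cd8b probe: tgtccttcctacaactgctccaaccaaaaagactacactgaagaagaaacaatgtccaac

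Of the 9 windows of these genes, 7 held AGGAAG, against 34.5% of the 33469 windows in the RefSeq table. TGTGGT was in 2 of the 9 windows, against 17.3% of all windows, and CTTTGA in 3 of the 9, against 16.1%. The Cd8a window held none of the motifs. These are letter matches and carry no measurement of binding.

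Several pairs stood apart over all probes. The change of a pair correlated with the mean change of the other 10 pairs at between 0.76 and 0.84 in animals 4, 9, 11, 13, 16, 25 and 26. The correlation was 0.47 in animals 17 and 21, 0.26 in animal 24 and 0.21 in animal 22. Normal pieces were hybridized on 3 slides and OSCC pieces on 4 different ones, so that each slide held 1 tissue, and all 11 normal arrays and the OSCC arrays of animals 4 and 9 were scanned on 1 day, the other 9 OSCC arrays on another. A systematic difference between the slides of the tissues therefore cannot be told apart from a change in OSCC. The fit with slide as a random block allows only for random variation between slides. Squamous epithelium and skeletal muscle, the tissues of the tongue, were detected in both groups, since all 10 squamous epithelium markers and all 11 skeletal muscle markers matched were well above background on at least 10 of 11 OSCC arrays and at least 10 of 11 normal arrays. These markers do not tell OSCC from normal tissue.

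Limma called 8 of the 10 genes up-regulated in OSCC and none down-regulated, and Cd3d and Cd247 were not called. Over the whole array 6.86% of probes were called up-regulated and 6.97% down-regulated. The median change of the 10 genes was 1.25 and that of all probes was -0.24. The median of all probes moved between -0.44 and -0.03 with the scaling of the arrays. At an unadjusted p below 0.05 and 2-fold, limma also found 8 of the 10 genes higher, against 7.08% of probes, and none lower. The call depended on the processing and the test. A paired t-test adjusted over all probes called 6 of the 10 genes, all up-regulated, and 6.52% of probes upward. By that test Cd3g (adjusted p = 0.0652) and Cd2 (adjusted p = 0.0562) were not called. Of the 10 genes, 5 were called with scaling to the array median (5.07% of probes upward), 5 with quantile normalization (6.39%), 1 after normexp background correction (2.25%), 3 with slide as a random block (5.9%) and 3 in the 9 pairs scanned on different days (5.73%), in each case up-regulated. With scan day as a further term limma called none of the 10 genes and 3 of the 30367 probes, whereas 3 of the 10 genes passed an unadjusted p below 0.05 with a 2-fold change, in which 6.33% of probes did so upward. Only the pairs of animals 4 and 9 carry information on tissue in that fit.

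**Figure D1:**
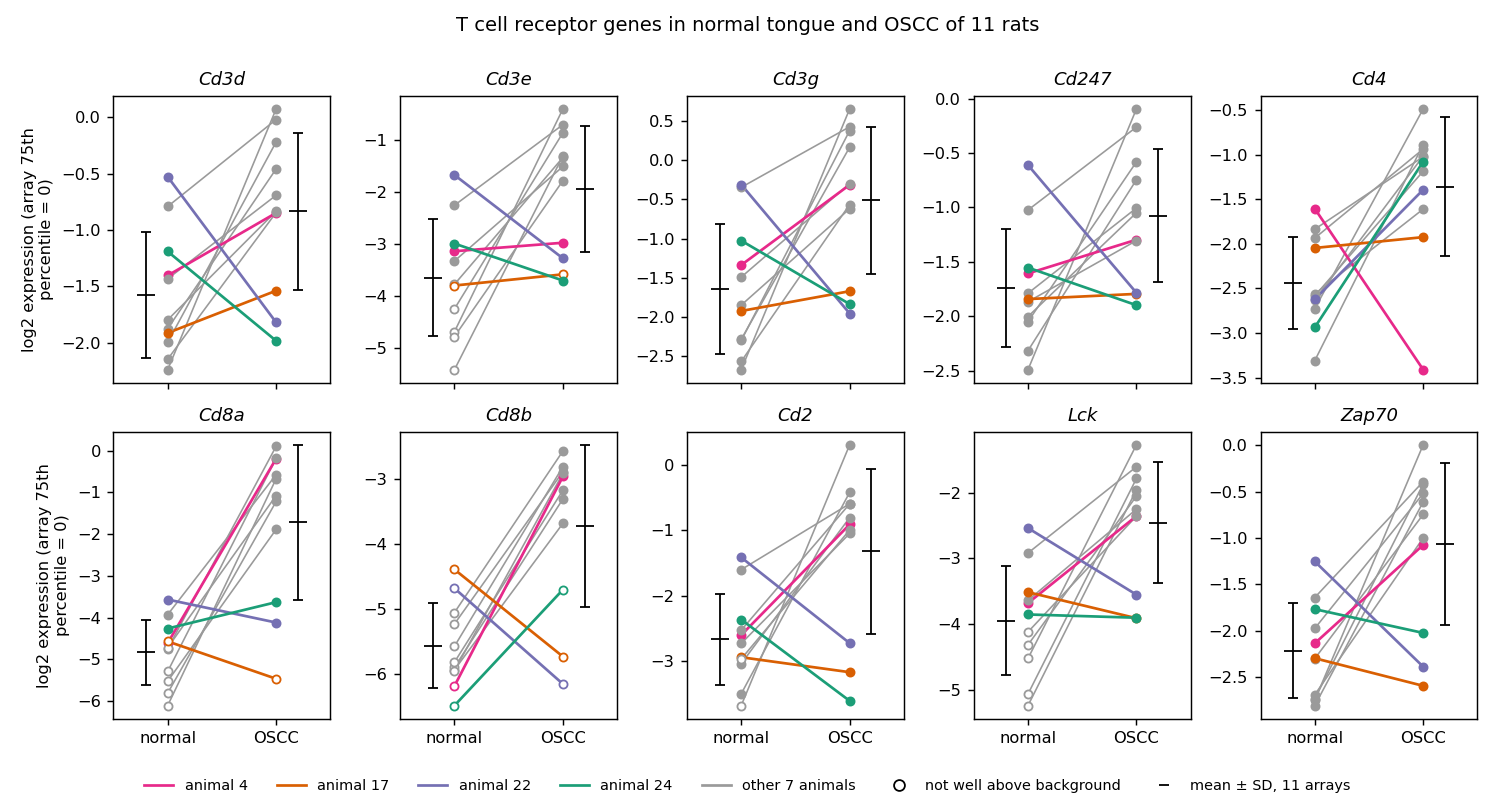
Log2 expression of the 10 genes (vertical axis, array 75th percentile at 0) in the normal and the OSCC piece of each of 11 rats, a line joining the pieces of 1 rat, open circles marking arrays where the probe was not well above background, and bars showing mean ± SD (n = 11). In animals 22 and 24 all 4 chains of the CD3 complex were lower in OSCC than in normal tissue, and Cd4 was lower in OSCC in animal 4 alone.

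The chains of the CD3 complex were higher in OSCC in the same 9 rats. Cd3e encodes CD3 epsilon, the chain that pairs with both delta and gamma. Its log2 expression was between -5.42 and -1.67 on the 11 normal arrays (median -3.78) and between -3.70 and -0.39 on the 11 OSCC arrays (median -1.50). The tissues overlapped, and 6 OSCC arrays lay above the highest normal array, that of animal 22. The mean change was 1.70 (SE 0.54, n = 11, adjusted p = 0.0259), and the probe exceeded background on 5 normal and 10 OSCC arrays. The call of Cd3e was lost without animal 9, 11, 13, 25 or 26 in turn, with adjusted p from 0.0534 to 0.0596.

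Cd3g encodes CD3 gamma and is measured by 10 spots of 1 probe. Its log2 expression was between -2.67 and -0.31 on the normal arrays (median -1.85) and between -1.95 and 0.65 on the OSCC arrays (median -0.31), and 5 OSCC arrays lay above all normal arrays. The mean change was 1.13 (SE 0.41, adjusted p = 0.0401). This call was lost without animal 4, 9, 11, 13, 16, 25 or 26 in turn, with adjusted p from 0.0653 to 0.0891.

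Cd3d, which encodes CD3 delta, and Cd247 were not called. The log2 expression of Cd3d was between -2.24 and -0.53 on the normal arrays (median -1.80) and between -1.98 and 0.07 on the OSCC arrays (median -0.83), with a mean change of 0.74 (SE 0.29, adjusted p = 0.0557). The log2 expression of Cd247 had a median of -1.84 over the normal arrays (range -2.49 to -0.61) and of -1.05 over the OSCC arrays (range -1.90 to -0.09), with a mean change of 0.67 (SE 0.27, adjusted p = 0.0623). Both genes were well above background on all 22 arrays and overlapped widely between tissues, with 4 and 3 OSCC arrays, respectively, above the highest normal array. Both passed limma's threshold without animals 21, 22 and 24, with a mean change of 1.18 for Cd3d (adjusted p = 0.00174) and 1.01 for Cd247 (adjusted p = 0.00629). The paper names animals 21, 22 and 24 as examples of variable expression. Animals 22 and 24 were the only rats in which Cd3d and Cd247 were lower in OSCC. Leaving them out raises the mean change by construction, so this pass is no independent support for a rise.

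Cd3d, Cd3e, Cd3g and Cd247 were each lower in OSCC than in normal tissue in animals 22 and 24, and in no other rat. In animal 22 their changes were -1.29, -1.61, -1.64 and -1.18, respectively. In animal 24 they were -0.79, -0.71, -0.81 and -0.35. In animal 17 all 4 chains differed little between the pieces, with changes between 0.05 and 0.37, and the Cd3e probe exceeded background in neither piece. After normexp Cd3d, Cd3e and Cd247 were without a rise in animal 4 as well. Relative to the pair's median change, Cd247 was also without a rise in animal 17.

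Among the co-receptor genes, Cd8a had the largest mean change of the 10 genes and the widest spread between pairs (SD 2.29), whereas Cd4 had a smaller mean change (1.08, SD 1.16). Cd8a encodes the alpha chain of CD8. Its log2 expression was between -6.11 and -3.57 on the normal arrays (median -4.72) and between -5.47 and 0.11 on the OSCC arrays (median -1.07). The OSCC arrays fell into separate groups, with 8 of them between -1.89 and 0.11 and those of animals 17, 22 and 24 at -5.47, -4.12 and -3.63, inside the normal range. The mean change was 3.11 (SE 0.62, n = 11, adjusted p = 0.00255), an 8.64-fold difference on the geometric mean. Cd8a was well above background on 3 normal arrays, those of animals 21, 22 and 24, and on all OSCC arrays except that of animal 17, so the size of its change depends on signals near background. With signals under the array's detection floor raised to that floor the mean change was 2.25, and after normexp background correction it was 1.52 (adjusted p = 0.00293), the only 1 of the 10 genes still called.

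Cd8b encodes the beta chain, which pairs with alpha on cytotoxic T cells, and its gene lies 37278 bases from Cd8a on GRCr8. Its log2 expression was between -6.49 and -4.39 on the normal arrays (median -5.82) and between -6.16 and -2.57 on the OSCC arrays (median -3.17). It exceeded background on none of the normal arrays and on 8 OSCC arrays, all except those of animals 17, 22 and 24. Cd8b was at least 1.13-fold higher in OSCC when normal tissue was set at its detection floor (adjusted p = 0.00765 for the measured mean change of 1.85, SE 0.45). After normexp its mean change was 0.49 and it was not called (adjusted p = 0.31).

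Cd4 was detected on all 22 arrays. Its log2 expression was between -3.31 and -1.60 on the normal arrays (median -2.58) and between -3.41 and -0.49 on the OSCC arrays (median -1.08). The tissues overlapped less than for the CD3 chains, and 8 OSCC arrays lay above the highest normal array. The mean change was 1.08 (SE 0.32, adjusted p = 0.0209), and it fell below 2-fold without animal 11 (0.94), 24 (0.999) or 25 (0.96). In animal 4 the normal piece had the highest Cd4 value of the 11 normal pieces (-1.60) and the OSCC piece the lowest of the 11 OSCC pieces (-3.41). That rat and animal 9 are the pairs scanned within 1 day, and their changes of -1.81 and 1.62 gave a mean of -0.10. In the 9 pairs scanned on different days the mean change of Cd4 was 1.34 (adjusted p = 0.00474).

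Cd8a was higher in OSCC in 9 of 11 pairs, and the pairs without a rise were those of animals 17 (change -0.90) and 22 (-0.55). Cd8b was without a rise in the same animals, 17 (-1.34) and 22 (-1.48), although in animals 17, 22 and 24 its probe exceeded background in neither piece. The Cd8a probe exceeded background in neither piece of animal 17. Cd4 was higher in 10 of 11 pairs, and the pair without a rise was that of animal 4. No pair lacked a rise in both Cd8a and Cd4. Over the whole array 17.6% of probes were higher in OSCC in at least 9 of the 11 pairs. A single pair has 1 array for each tissue and no replicate error of its own. Cd4 was without a rise in animal 4 alone under all 7 alternative scalings and corrections, whereas Cd8a lost its rise in animal 24 after quantile normalization and gained one in animal 17 after normexp or with dim signals raised to the floor. Cd8b was without a rise in animals 4, 22 and 25 after normexp and in animals 22 and 24 with the floor.

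**Figure D2:**
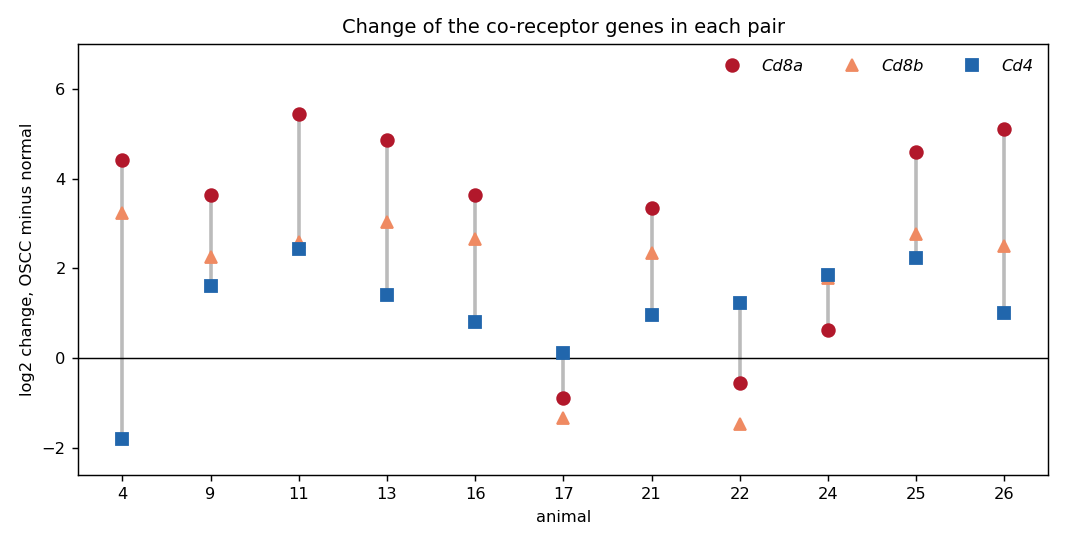
Log2 change, OSCC minus normal, of Cd8a (circles), Cd8b (triangles) and Cd4 (squares) in each of 11 rats, the grey bar joining Cd8a and Cd4. Cd8a lay above Cd4 in 8 rats and below it in animals 17, 22 and 24, and Cd4 lay below 0 in animal 4 alone.

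The change of Cd8a exceeded that of Cd4 in 8 of the 11 pairs. The differences were between 2.02 and 6.23 in those pairs, the highest in animal 4, and were -1.02 in animal 17, -1.78 in animal 22 and -1.23 in animal 24. The mean difference was 2.03 (SD 2.45, SE 0.74, 95% confidence interval 0.39 to 3.68). An exact two-sided sign-flip permutation test over the 11 pairs gave p = 0.0215, or 0.043 after Benjamini-Hochberg adjustment over the 2 comparisons with Cd4, where the smallest p that 11 pairs allow is 0.000977. This result was sensitive to single rats. Without animal 4, 9, 11, 13, 16, 21, 25 or 26 in turn the exact permutation test gave adjusted p from 0.0703 to 0.0859, with mean differences between 1.62 and 2.04. In the 9 pairs scanned on different days the mean difference was 1.57 (exact permutation test, adjusted p = 0.141), and in the 2 pairs scanned within 1 day it was 4.12.

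The change of Cd8b exceeded that of Cd4 in the same number of pairs, 8 of 11, but by less. The mean difference was 0.77 (SD 1.98, SE 0.60), and its 95% interval, -0.56 to 2.11, holds 0 and differences of more than 4-fold. The exact permutation test gave p = 0.237 (adjusted p = 0.237). The lower signal of Cd8b in normal tissue bounds this comparison, since with dim signals raised to the floor the mean difference was -0.52 and after normexp it was -0.18. Cd8a had a larger change than Cd8b in 10 of 11 pairs, the exception being animal 24, and the same count held against each of Cd3d, Cd3e, Cd3g, Cd247, Cd2, Lck and Zap70. These counts use measured signals, and Cd8a exceeded background on only 3 normal arrays and Cd8b on 0. With dim signals raised to the floor the mean change was 2.25 for Cd8a and 0.56 for Cd8b.

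Cd2 encodes an adhesion receptor of T and NK cells that lowers the threshold for activation. Its log2 expression was between -3.68 and -1.41 on the normal arrays (median -2.73) and between -3.61 and 0.31 on the OSCC arrays (median -0.91), and 8 OSCC arrays lay above all normal arrays. The mean change was 1.35 (SE 0.46, adjusted p = 0.0332). The call was lost without animal 4, 9, 11, 13, 16, 25 or 26 in turn, with adjusted p from 0.0582 to 0.0722.

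The kinases were higher in OSCC in 8 rats and lower in animals 17, 22 and 24, as was Cd2. The log2 expression of Lck was between -5.24 and -2.54 on the normal arrays (median -3.86) and between -3.91 and -1.27 on the OSCC arrays (median -2.25), and its probe exceeded background on 6 normal and 10 OSCC arrays. The mean change of Lck was 1.49 (SE 0.41, adjusted p = 0.0141). The log2 expression of Zap70 was between -2.81 and -1.25 on the normal arrays (median -2.30) and between -2.59 and 0.01 on the OSCC arrays (median -0.74), all 22 above background. The mean change of Zap70 was 1.15 (SE 0.34, adjusted p = 0.0197), or 0.98, short of 2-fold, without animal 25. For both kinases 8 OSCC arrays lay above the highest normal array.

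**Figure D3:**
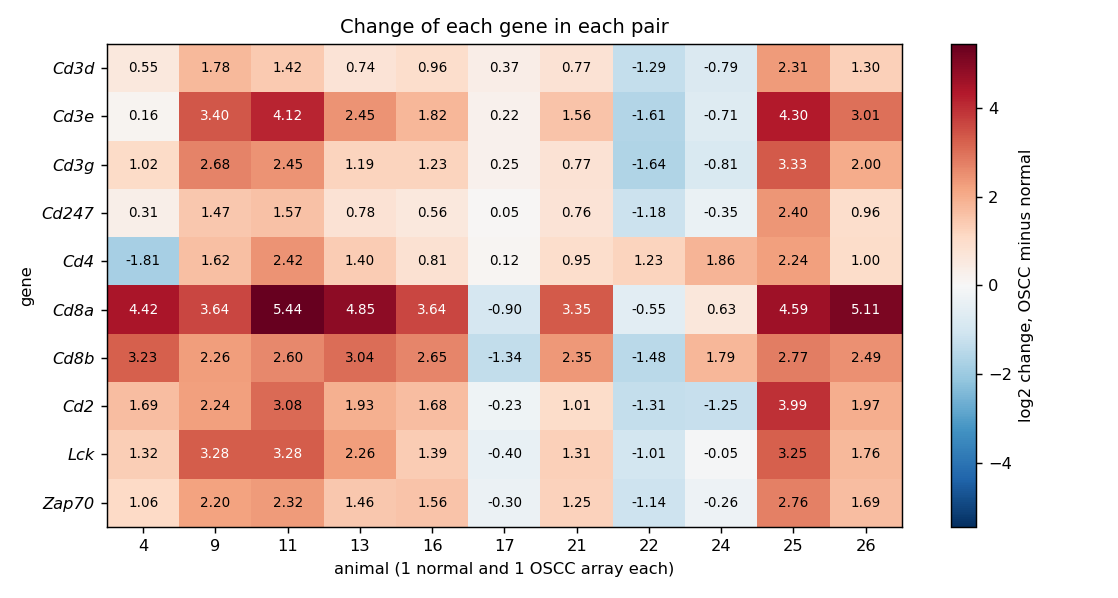
Log2 change, OSCC minus normal, of each of the 10 genes (rows) in each of 11 rats (columns), printed and coloured red where higher and blue where lower in OSCC. The columns of animals 17, 22 and 24 hold 5, 9 and 7 values below 0, and the column of animal 4 holds 1, Cd4.

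Read by rat, all 10 genes were higher in OSCC in animals 9, 11, 13, 16, 21, 25 and 26, and 9 of 10 in animal 4. In animal 17 the CD3 chains and Cd4 were higher by at most 0.37 and the other 5 genes were lower. In animal 24 Cd4 and Cd8a were higher, by 1.86 and 0.63, Cd8b had a measured change of 1.79 between signals not above background, and the other 7 genes were lower. In animal 22 Cd4 was higher (1.23) and the other 9 genes were lower, by 0.55 to 1.64.

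The low changes went with low values in OSCC in animals 17, 22 and 24, and in animals 22 and 24 also with high normal values of most of these genes. These rats are named for low changes in the same genes, and a low OSCC or a high normal value makes up such a change. The ranks below therefore only describe which piece the low changes came from. The normal piece of animal 22 was among the 2 highest of the 11 normal pieces for 9 of the 10 genes, that of animal 17 for 1, that of animal 24 for 0 and that of animal 21 for 8 of 10. For Cd3d, Cd3e, Cd3g, Cd247, Cd8a, Cd2 and Zap70 the normal piece of animal 24 was behind only those of animals 22 and 21. The OSCC pieces of animals 17, 22 and 24 were among the 3 lowest of the 11 OSCC pieces for 10, 9 and 9 of the 10 genes. Animal 21 thus had high values in its normal piece and still higher ones in OSCC, for all 10 genes. Without the pairs of animals 21, 22 and 24, limma called 9 of the 10 genes, all but Cd4 (mean change 0.98, adjusted p = 0.063), and 8.69% of probes upward. Most of the 10 genes were lower in OSCC in animals 22 and 24, so leaving these rats out raises their mean changes by construction.

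Some lists of markers of other cells moved with these pairs, and others did not. The mean change of 11 skeletal muscle markers was between -3.93 and -0.76 in 8 pairs and was positive in animals 21 (1.80), 22 (1.31) and 24 (1.46). Their mean level was between 5.32 and 6.96 on the normal arrays and between 1.54 and 7.64 on the OSCC arrays. The mean change of 10 squamous epithelium markers was between -0.74 and 0.42 except in animal 24 (-2.17). In animals 17, 22 and 24 the mean change of 7 pan-leukocyte markers was -0.25, -0.52 and 0.10, against 0.53 to 2.50 in the other rats. That of 10 fibroblast markers was -0.66, 0.75 and 0.48 in these animals and 0.50 in animal 21, against 1.40 to 3.01 in the others. That of 9 proliferation markers was -0.38, -0.996 and -2.11 in animals 17, 22 and 24 and -0.83 in animal 21, against 0.76 to 1.47 in the others. The mean change of the plasma cell, B cell and neutrophil lists was positive in all 11 pairs. In animals 17, 22 and 24 it was 2.27, 0.59 and 1.89 for plasma cells and 0.22, 0.14 and 1.12 for B cells. For neutrophils it was 0.55, 0.91 and 0.39 in these animals, against 1.03 to 4.14 in the other rats. Whether the share of any of these cells in the pieces had a part in the values of the T cell genes was not tested.

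**Figure D4:**
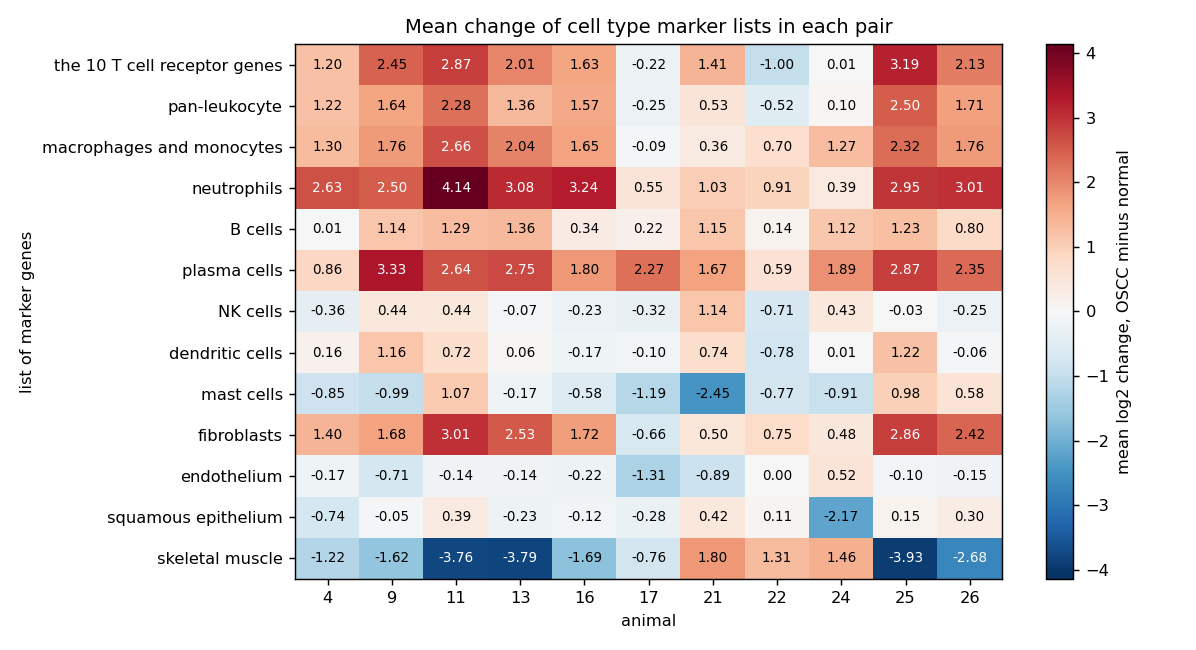
Mean log2 change, OSCC minus normal, of the 10 T cell receptor genes and of 12 lists of cell type markers (rows) in each of 11 rats (columns), red where higher and blue where lower in OSCC. Skeletal muscle markers were higher in OSCC in animals 21, 22 and 24 and lower in the other 8 rats, while the T cell receptor genes had a mean change below 0 in animals 17 and 22 and of 0.01 in animal 24.

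Macrophage markers are given beside Cd4 because rat macrophages carry it. Of 15 macrophage and monocyte markers, 11 were called up-regulated and none down-regulated, against 7.48% and 7.24% of all symbols. Their median change was 1.58, and their mean level was between -1.26 and -0.10 on the normal arrays and between -0.31 and 1.55 on the OSCC arrays. The scavenger receptor gene Cd68 (mean change 2.0) and the co-receptor gene Cd14 (2.11) were higher in OSCC in all 11 pairs, Marco did not exceed background on any of the 22 arrays, and Cd163 was not called (0.36, adjusted p = 0.238). In animals 22 and 24, where the CD3 chains were lower and Cd4 higher in OSCC, the macrophage list changed by 0.70 and 1.27. In animal 4, where Cd4 was lower, it changed by 1.30. The part of macrophages in the Cd4 signal was not tested.

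Relations between changes were computed for 4 pairs of measures. Over 10 rats, animal 4 being set apart by a gap in Cd4, the change of Cd4 and the mean change of the macrophage list had a Pearson r of 0.78 (permutation p = 0.0077, adjusted p = 0.0308) and a Spearman rho of 0.77 (permutation p = 0.0133, adjusted p = 0.0531). Animal 4 went against this relation, with a change of -1.81 in Cd4 and 1.30 in the macrophage list. It was left out on a value that enters the relation, so these p-values do not test the relation over all 11 rats. No r over all 11 rats is given, and the relation is described only for the rats without animal 4. Without the 2 rats farthest from the median of the macrophage list r was 0.57, and in the pairs scanned on different days it was 0.64 over 8 rats, animal 17 being set apart there by the same rule (exact permutation test, adjusted p = 0.113). After normexp it was 0.11 (permutation test, adjusted p = 0.762). The change of Cd4 and that of Cd3e had r = 0.47 and rho = 0.53 over the same 10 rats (permutation p = 0.181 and 0.123, adjusted p = 0.241 and 0.165), and 0.94 without the 2 rats farthest in Cd3e. Over the 8 rats left when a gap in Cd8a set animals 17, 22 and 24 apart, Cd8a and Cd3e had r = 0.42 and rho = 0.48 (exact permutation p = 0.294 and 0.243, adjusted p = 0.294 and 0.243) and 0.67 without the farthest 2. Over those 8 rats Cd8a and the macrophage list had r = 0.73 and rho = 0.69 (exact permutation p = 0.0323 and 0.0694, adjusted p = 0.0647 and 0.139) and 0.29 without the farthest 2. Animals 17, 22 and 24 had the lowest changes in Cd8a (-0.90, -0.55 and 0.63), with changes in Cd3e of 0.22, -1.61 and -0.71. Neither relation of Cd8a is given over all 11 rats, so both are described only within the other 8.

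NK cell markers are given beside Cd8a and Cd2, which NK cells share. Limma called none of the 10 NK markers in either direction, also at an unadjusted p below 0.05 and 2-fold. With 7.48% of all symbols called up-regulated and 7.24% down-regulated, none of 10 cannot be told from that share. The median change of the NK markers was 0.07, and their mean level was between -4.79 and -4.04 on the normal arrays and between -4.86 and -3.22 on the OSCC arrays. The receptor gene Klrk1, which CD8 T cells also express, exceeded background on all 22 arrays and was higher in OSCC in 9 pairs, by less than 2-fold (0.52, SE 0.13, adjusted p = 0.0096). Ncr1 was also higher in 9 pairs by less than 2-fold (0.48, SE 0.15, adjusted p = 0.0258). The receptor genes Ncr1, Klrd1 and Klrc1 were well above background on no normal array and 1 OSCC array each, Klrb1a on 3 OSCC arrays, and Klrb1 and Ncr3 on none. The granule genes Nkg7 (change -0.08, adjusted p = 0.83), Gzmb (0.21, adjusted p = 0.677) and Prf1 (0.65, adjusted p = 0.108), which cytotoxic T cells also express, were not called. In 8 rats the change of Cd8a was between 3.35 and 5.44, and in these rats the NK list changed by -0.36 to 1.14.

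The signalling genes next in the pathway had a smaller median change than the 10 receptor genes, a difference that was not tested. Of 35 genes of proximal T cell receptor signalling, 30 were matched to a probe, of which 9 were called up-regulated, 2 down-regulated and 19 not called, with a median change of 0.45. With 1 probe for each of the 19167 symbols, 7.48% were called up-regulated and 7.24% down-regulated. The largest fitted rise was that of Vav1, a guanine nucleotide exchange factor (2.43, SE 0.44, adjusted p = 0.00161). Ptprc, the CD45 phosphatase that activates LCK, rose by 1.5 (SE 0.35, adjusted p = 0.00599). Was, the WASP actin regulator, was at least 1.13-fold higher (adjusted p = 0.00422), and its place among these rises is not set because no normal array exceeded background. Vav1, Was and Ptprc are expressed by leukocytes in general. The adaptor gene Lcp2 (SLP-76, 1.46), whose product ZAP70 phosphorylates, was also called. The adaptor Lat, the main ZAP70 substrate, was not called (0.31, SE 0.31, adjusted p = 0.419), nor were Fyn, Plcg1, Cd5 or Cd6.

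The 2 down-regulated signalling genes were Prkcq and Stim1. Prkcq encodes protein kinase C theta, which links the receptor to NF-kappa B and is also known from skeletal muscle, and its mean change was -2.29 (SE 0.42, adjusted p = 0.00165). Stim1 encodes the calcium sensor of the endoplasmic reticulum, which muscle also uses, and its mean change was -1.15 (SE 0.21, adjusted p = 0.0015). Both were well above background on all 22 arrays. Of the 11 skeletal muscle markers 7 were called down-regulated and 1, Myh2, up-regulated, against 7.24% and 7.48% of all symbols. The part of muscle in the change of Prkcq and Stim1 was not tested.

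Negative regulators of the receptor were measured for 19 of 20 genes, of which 3 were called up-regulated, none down-regulated and 16 not called, with a median change of 0.50. At an unadjusted p below 0.05 and 2-fold limma likewise found none down-regulated. Over all symbols 7.48% were called up-regulated and 7.24% down-regulated, and none lower among 19 genes cannot be told from that share. The 3 were Socs3 (2.39, SE 0.39, adjusted p = 0.000942) and Socs1 (1.22, SE 0.35, adjusted p = 0.0176), which encode inhibitors of cytokine signalling in many cell types, and Sh2d2a (1.58, SE 0.37, adjusted p = 0.00603), which encodes the LCK-binding adaptor TSAd. Csk, the kinase that keeps LCK inactive, was not called (0.36, adjusted p = 0.0777), and the phosphatase gene Ptpn22 was higher by less than 2-fold (0.76, adjusted p = 0.0426). Dgkz, whose product removes diacylglycerol, was lower in all 11 pairs but by less than 2-fold (-0.83, adjusted p = 0.000329). Without animals 21, 22 and 24 limma called 8 of the 19 up-regulated, against 8.69% of probes. The mean change of this list was below 0 only in animals 22 (-0.36) and 24 (-0.30), so leaving them out raises it by construction.

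T cell lineage and state genes were measured for 32 of 34 genes, of which 8 were called up-regulated, 2 down-regulated and 22 not called, with a median change of 0.40. Among the 19167 symbols 7.48% were called up-regulated and 7.24% down-regulated, so the share down-regulated was near that of the array. The genes called up-regulated included Itgal, the LFA-1 integrin alpha chain (2.38, SE 0.50, adjusted p = 0.00325), and Ccr7, the homing receptor of naive T cells and mature dendritic cells (1.71, SE 0.37, adjusted p = 0.00375). Itgal and Ccr7 were well above background on 1 and 2 normal arrays and on 8 and 9 OSCC arrays. Icos, Il7r, Il2ra, Cd69 and Runx1 were also called up-regulated, with mean changes between 1.47 and 1.70. The probes of Icos, Il7r, Il2ra and Cd69 were well above background on 4, 2, 1 and 2 normal arrays and on 8, 9, 10 and 11 OSCC arrays.

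Of the down-regulated genes, Lef1, a transcription factor of naive T cells and also of epithelium, had a mean change of -2.12 (SE 0.17, adjusted p = 4.64e-05) and was lower in all 11 pairs. Among genes that separate the CD4 and CD8 lineages or their subsets, Zbtb7b (0.28, adjusted p = 0.164) and Foxp3 (0.45, adjusted p = 0.168) were not called, and Gata3 (0.90, adjusted p = 0.0405) and Tbx21 (0.85, adjusted p = 0.0472) were higher by less than 2-fold. Gata3 and Foxp3 were above background on no normal array and on 5 and 6 OSCC arrays. Tcf7 (-0.49, adjusted p = 0.0909) and Bcl11b (-0.60, adjusted p = 0.12), transcription factors of the T lineage, were not called either.

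**Figure D5:**
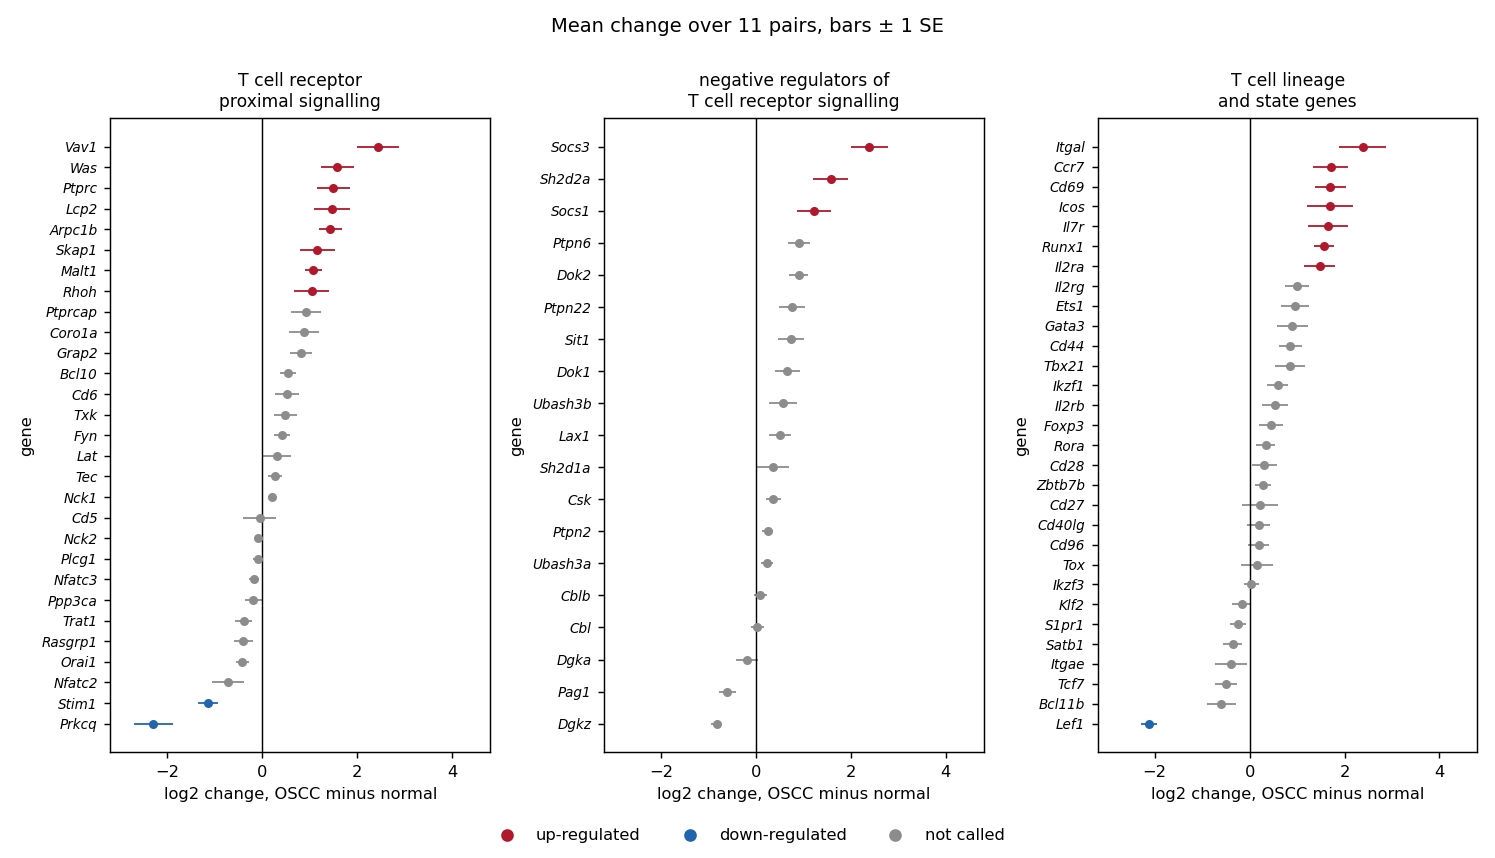
Mean log2 change, OSCC minus normal, over 11 pairs with bars of 1 SE (horizontal axis) for the genes reported of proximal signalling, negative regulation and T cell lineage or state, red where called up-regulated, blue where called down-regulated and grey where not called. The lists show 8, 3 and 7 genes in red and 2, 0 and 1 in blue.

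The genes most like Cd3e over the 11 OSCC arrays, among 11259 genes compared, were Map4k1 (Pearson r 0.97), Lat, LOC688090, Sept1, Lck, Cd69, Ly86 and Ptpn22 (0.94). Lat and Ptpn22, which were not called between tissues, thus varied among OSCC pieces closely with Cd3e. The list most like Cd8a held none of the 10 genes and consisted of Trerf1 (0.97), Klhl2, Lyar, Tiparp, Slc16a3, Trex1, Ms4a11 and Ebna1bp2 (0.95). That most like Cd4 was Taok2 (0.96), Icoslg, Ip6k2, Tfpt, Midn, Mfsd1, Terf2 and Psme3 (0.90). Likeness is a description over arrays that share slides and depth of signal, and Cd8a and Cd4 each have OSCC arrays far from the rest, those of animals 17, 22 and 24 and of animal 4, on which a correlation leans.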

How the data were processed

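Total RNA of 22 tongue pieces was hybridized by the authors to one-color Agilent Rat GE 4x44K v3 arrays. The intensity values deposited by the authors are Feature Extraction 9.5.3.1 processed signals, in which the background of each spot was subtracted and spatial trends were removed, with no scaling between arrays. The authors also deposited the signal divided by the 75th percentile of each array, a ratio used here as an alternative.

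Control spots and 9196 outlier spots (0.975%) were left out, replicate spots were averaged per probe on the log2 scale and the 75th percentile of the array was subtracted. That percentile was 236.8 to 654.9 signal units on normal and 338.7 to 1414 on OSCC arrays. The probes well above background made up 48.4% to 56.1% and 52.3% to 65.5%, respectively. No dim probe was removed. Limma 3.58.1 in R 4.3.3 was fitted to all 30367 probes with tissue and rat as terms, with Benjamini-Hochberg adjustment over all probes, and was tested on simulated data. The pairing comes from the animal number in the labels. Over the 11 pairs, deviations of both tissues from their tissue means correlated at -0.21 to 0.24 (median -0.02). For a gene that exceeded background on none of the normal arrays, the bound on its fold set that tissue at the higher of its own signal and the lowest signal of any probe above background on each array. CD8 and CD4 changes were compared with scipy 1.17.1 by an exact sign-flip test and relations by 100000 permutations, or all of them below 10 pairs.

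The 10 genes were given by name, with the brightest probe for each. The text names from each list the 3 called genes with the largest fitted rise, the 2 with the largest fall and any other gene called lower, and the 8 genes most like Cd3e, Cd8a and Cd4 on OSCC arrays, each well above background on at least 9 of them. Other list genes were named after their values were seen. Some genes counted in these lists are not reported here by name. The genes and lists were chosen with earlier results of these data known. Symbols were checked against RefSeq (GRCr8), which gave 17328 probes a symbol and all 10 genes the same one. Alternatives covered scaling, background correction, dim probes, pairing, test, slide, scan day and leaving out pairs. The number of arrays limits precision.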

Additional observations from a re-analysis of the deposited data

How the results depend on the processing

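All 10 genes kept the direction of their mean change under every alternative run, except Cd4, which was -0.10 with scan day as a term (adjusted p = 0.93) and in the pairs scanned within 1 day, animals 4 and 9. The number of the 10 genes called was 5 with scaling to the array median or quantile normalization, 1 after normexp, 3 with slide as a random block, 0 with scan day as a term, 3 in the pairs scanned on different days, and 3 to 8 when 1 rat was left out (5.96% to 7.51% of probes upward). A paired t-test adjusted over all probes called 6 of the 10 genes. Without the replicate block limma called 8 of the 10 genes and 4227 probes, and the pairing changed no call of the 10 genes. Probes called numbered 1697 after normexp, 3 with scan day and 6924 without animals 21, 22 and 24 (4201 in the main analysis, of which 2083 were up-regulated and 2118 down-regulated; 1541 and 3154 with scaling to the median), and 3649 to 4799 when 1 rat was left out. Proximal signalling genes called (11) numbered 7 with the median, quantile normalization or different scan days, 4 after normexp and 0 with scan day. Negative regulators called (3) numbered 1 after normexp, 0 with scan day and 8 without animals 21, 22 and 24, and lineage genes called (10) numbered 2 after normexp and 0 with scan day. At an unadjusted p below 0.05 and 2-fold, scan day left 5 proximal genes higher and 2 lower, 2 negative regulators higher and 2 lower, and 9 lineage genes higher and 1 lower, where 6.33% of all probes were higher and 25.2% lower.

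The Cd8a minus Cd4 difference was no longer past its threshold after quantile normalization (2.19), normexp (0.85), with different scan days (1.57) or with dim signals raised to the floor (1.18), and was 1.62 to 2.42 when 1 rat was left out. The Cd8b minus Cd4 difference was -0.18 after normexp, -0.52 with the floor, 2.84 in the pairs of 1 day, and 0.35 to 1.12 when 1 rat was left out. It passed without animal 22 (1.12, exact permutation test, adjusted p = 0.041). The relation of Cd4 to the macrophage list (0.78 over 10 rats, animal 4 left out) was 0.11 after normexp, 0.64 with different scan days and 0.91 over 6 rats without animals 21, 22 and 24, none past its adjusted threshold. That of Cd8a to the list was 0.78 on the authors' scaled values, past it. The cause of these shifts was not tested. The floor, the change relative to the pair's median and the scan-day split of the relations were chosen after seeing the data. Each of the 10 genes has 1 probe, so other probes could not be tried. Signal over background limits Cd3e, Cd8a, Cd8b, Cd2 and Lck in normal tissue.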

Other observations

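The antigen-binding chains of the receptor were represented by 4 probes named Tcrb and 1 named Tcra-v22.1, chosen after their values were seen. Of these, 1 Tcrb probe was called up-regulated (mean change 1.06, SE 0.22, adjusted p = 0.00313) and was higher in OSCC in all 11 pairs, animals 22 and 24 included, although it was well above background on no normal array and 5 OSCC arrays, so that no fold could be given. The other 3 Tcrb probes had mean changes of 0.51, 0.58 and -0.56 and were not called. The Tcra-v22.1 probe exceeded background on none of the 22 arrays. The probes carry no annotation here that ties each to a constant or a variable segment.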
